A study of Mus musculus with 10 samples.

Results

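Ribosome biogenesis factors are the proteins that cut, modify, fold and package the ribosomal RNA precursor into ribosomal subunits. The 60 genes described here were given as a list of symbols and matched by symbol to the deposited table, where 59 of them have a row among the 14796 named genes. Utp4 has no row under that symbol, and all 59 of the others have a value in every sample. The samples were telencephalon, the embryonic forebrain region that forms cortex and basal ganglia, taken from mouse embryos at day 12 of gestation and measured by RNA sequencing of total RNA. The series sets a null allele and a missense allele (C1559F) of Polr1a, the gene of the main catalytic subunit of RNA polymerase I, against wild type. The 2 null samples and 2 of the wild types carry the same number in their titles and are called the null set; the 3 missense samples and the other 3 wild types carry a second number and are called the missense set. The sources used here do not give what the title numbers mean, the zygosity, the strain, how the alleles were made or whether a sample is 1 embryo or a pool. The p-values thus cover only the spread between these samples, which may be technical.

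RNA polymerase I makes a single long precursor of most ribosomal RNAs in the nucleolus. On this precursor the small-subunit processome assembles from U3 snoRNA and modules of UTP proteins, while guide snoRNPs of the box C/D and box H/ACA kinds methylate and pseudouridylate it. After the precursor has been cut, separate sets of GTPases, helicases and nucleases mature the large and the small subunit. The transcription of many of these genes is known to respond to Myc, and neural progenitors of the embryonic forebrain are rapidly dividing cells with a high demand for ribosomes.

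Polr1a itself had log2 values of 4.99 and 4.82 in the null samples, against 5.38 and 5.38 in the null-set wild types. Both null samples lay below both wild types, and the change of -0.48 (SE 0.20) missed the threshold (limma adjusted p = 0.563). Polr1a read 5.09, 5.66 and 5.79 in the missense samples, against 5.62, 5.51 and 5.64 in the missense-set wild types, a change of -0.08 (limma adjusted p = 0.964). The deposited values were read as log2 CPM, a level scaled to the same library total, and the sequencing depth behind them is therefore unknown. Correlations between samples ran from 0.938 to 0.964 over all genes. Null-set wild type 1 stood apart from the other samples in that short transcripts read high in it, and some null changes are also given without it.

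With the null allele, no ribosome biogenesis factor passed the test. The median log2 change of the 59 factors was 0.03, and that of all genes was also 0.03. Of the factors 35 were higher and 24 lower in the null samples, where 45.3% of all genes were lower, and the interquartile range of their changes ran from -0.08 to 0.14, against -0.14 to 0.24 over all genes. In limma with Benjamini-Hochberg adjustment over all genes, 0 of 59 had an adjusted p under 0.05, where 0.162% of all genes did. At an unadjusted p under 0.05 there were 2 factors, Nol8 and Utp6, both higher, or 3.39% of the factors where 8.32% of all genes reached it (5.04% higher, 3.28% lower). The lowest adjusted p among the factors was 0.206 for Nol8. The direction of the median was not stable. It was -0.03 without null sample 1, with 23 factors higher and 36 lower, 0.07 without null-set wild type 1, and -0.005 with every sample centred on its median over all genes, where 29 factors were higher and 30 lower.

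With the missense allele, again no factor passed. The median log2 change of the 59 factors was 0.05, against 0.02 over all genes, with 42 factors higher and 17 lower in the missense samples, where 46.0% of all genes were lower. It lay between 0.0225, without missense sample 3 (35 higher, 24 lower), and 0.073, without missense-set wild type 1, when 1 sample was left out, and it was 0.0257 with median-centred samples (36 higher, 23 lower). The interquartile range of the changes ran from -0.02 to 0.12, against -0.11 to 0.16 over all genes. In the same limma fit 0 of 59 had an adjusted p under 0.05, where 0.0203% of all genes did, and the lowest adjusted p was 0.884. Unadjusted p-values under 0.05 were found for Utp6, Mybbp1a and Nip7, which were higher, and Imp4, which was lower. These 4 are 6.78% of the factors, where 5.54% of all genes had such a p (3.2% higher, 2.33% lower).

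**Figure D1:**
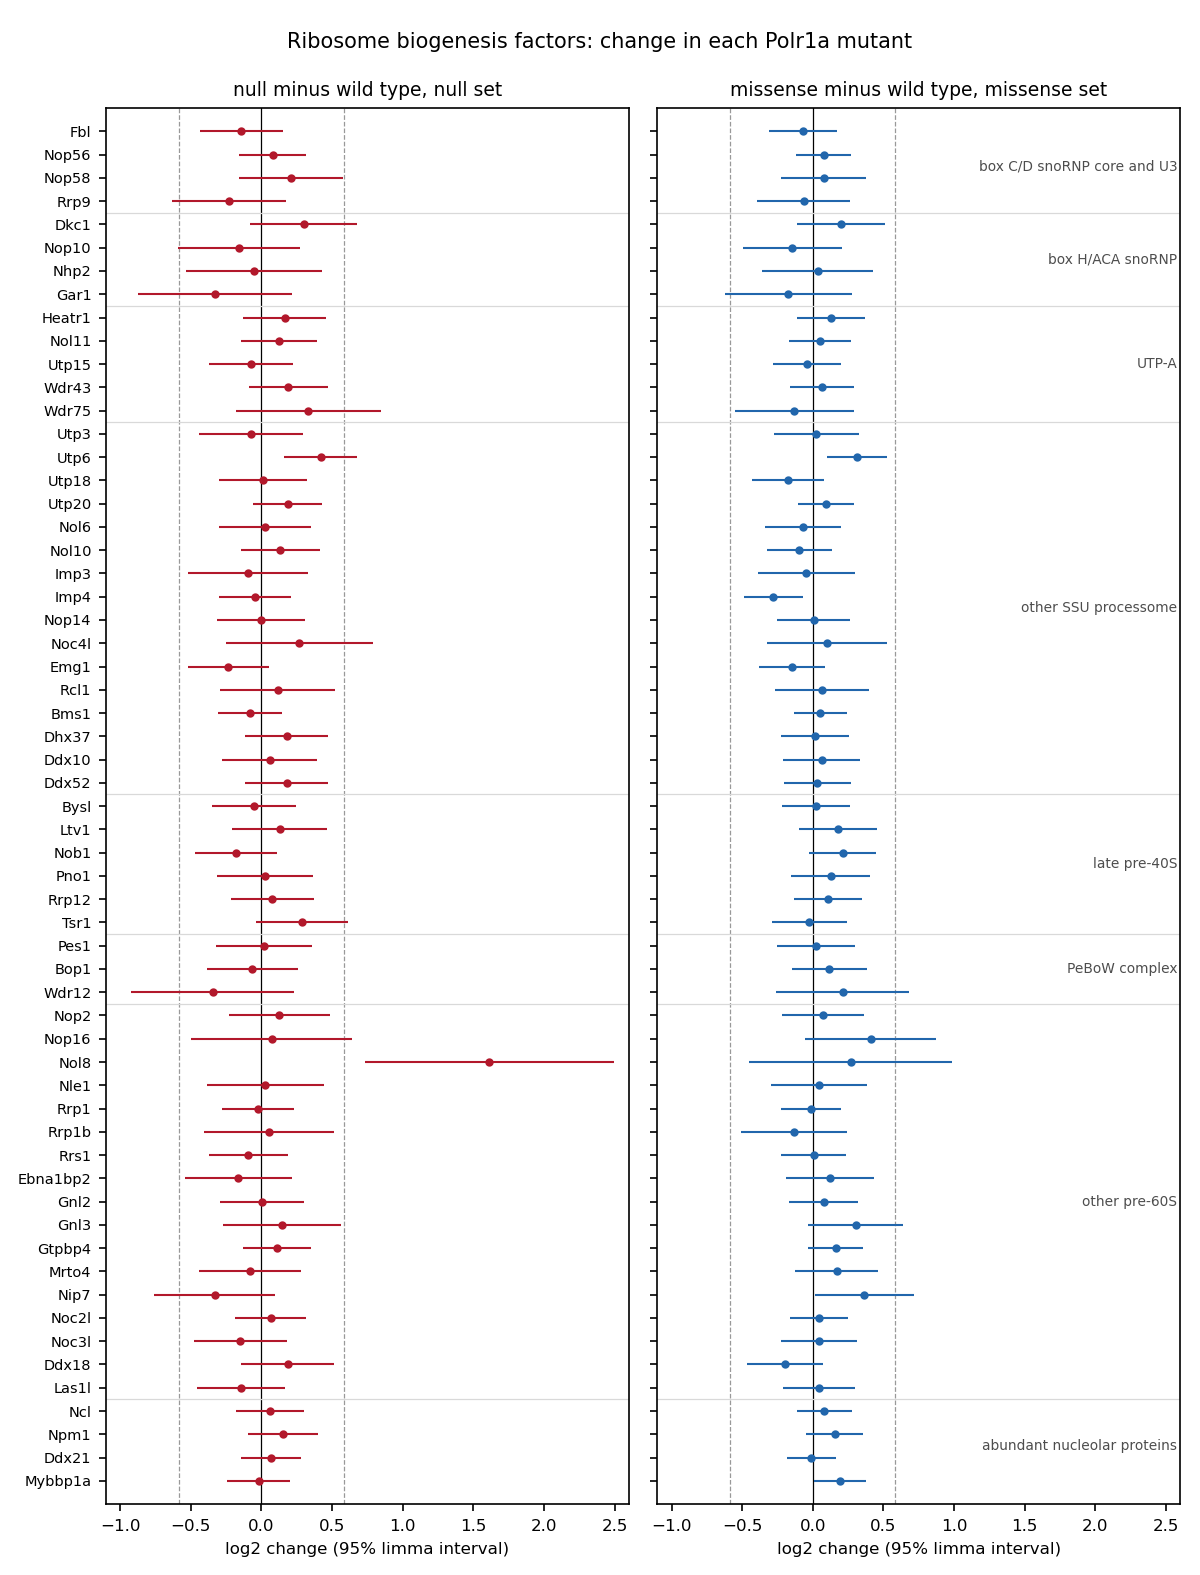
The log2 change of each of the 59 factors, null minus its wild types on the left and missense minus its wild types on the right, with 95% intervals from limma that are not adjusted for the number of genes; factors are grouped by role and dashed lines mark a 1.5-fold change. The points lie close to 0 in both panels apart from Nol8 at 1.61 with the null allele, whose interval is the widest.

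The intervals of the changes, taken for each gene singly and unadjusted, rest on the spread between these samples pooled over the 4 groups. With the null allele, the 95% interval of 47 of 59 factors (79.7%) lay within a 1.5-fold change in either direction, where 40.4% of all genes had so narrow an interval. For 54 factors (91.5%) the interval excluded a 1.5-fold fall, against 62.8% of all genes. With the missense allele, the interval lay within 1.5-fold for 53 of 59 (89.8%), against 53.0% of all genes. It excluded a 1.5-fold fall for 58 factors (98.3%), against 70.1% of all genes. The median SE of the factors was 0.147 with the null allele and 0.12 with the missense allele, against 0.218 and 0.178 over all genes. The fit lets the spread vary with the mean level of a gene, and the shares over all genes were not matched for level. The intervals are those of relative RNA level. In bulk tissue, fewer cells that express a gene and less of its RNA per cell cannot be told apart, and a change shared by all RNA would not show on the CPM scale.

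The factors of the box C/D snoRNP guide and carry out ribose methylation. Fbl, the methyltransferase of the complex, had log2 values of 6.83 and 6.87 in the null samples, against 7.13 and 6.85 in the null-set wild types, and the groups overlapped. It read 6.61, 6.58 and 6.91 in the missense samples, against 6.71, 6.79 and 6.81 in the missense-set wild types, also with overlap. Nop56, a scaffold protein of the same particle, differed by 0.08 in both comparisons, with SE of 0.11 for null and 0.09 for missense. Over the 4 genes of this group, with Nop58 and the U3 protein gene Rrp9, the median change was -0.03 with the null allele (0.03 without null-set wild type 1) and 0.01 with the missense allele (-0.09 without missense sample 3).

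The box H/ACA snoRNP turns uridine into pseudouridine, and its 4 proteins are also part of telomerase. Dkc1, the pseudouridine synthase, had 6.92 and 6.57 in the null samples, against 6.42 and 6.47 in the null-set wild types. The null samples were both above the wild types, by 0.30 on the log2 scale (SE 0.17, limma adjusted p = 0.72). Gar1, another protein of the particle, lay the other way, at 5.14 and 4.97 in the null samples, against 5.81 and 4.96 in the wild types. Its change of -0.33 (SE 0.25) rested on null-set wild type 1, and without that sample it was 0.10. Nop10 did likewise, with a change of -0.16 and of 0.05 without that sample. The fourth gene, Nhp2, differed by -0.05, and by 0.36 without that sample.

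The UTP-A module is the first to bind the nascent precursor, and 5 of its 6 listed genes were measured. The median change was 0.16 with the null allele and 0.05 with the missense allele. Null sample 1 set most of the null value, since the median was 0.01 without it. The summed level of the 5 genes was 420.2 and 341.5 CPM in the null samples, against 328.6 and 352.7 in the null-set wild types, with overlap. Wdr75 had the largest null change of the module, at 6.44 and 5.78 in the null samples, against 5.64 and 5.92 in the null-set wild types, with overlap (0.33 on the log2 scale, SE 0.23, limma adjusted p = 0.776). Null sample 1 was the high one, and without it the change was 0.0052. Wdr43 read 6.50 and 6.37 in the null samples, against 6.30 and 6.19 in the wild types, without overlap, a change of 0.19 (SE 0.13). Heatr1, the largest protein of the module, differed by 0.16 with the null allele (0.02 without null sample 1) and 0.13 with the missense allele, and the missense samples at 6.36, 6.27 and 6.25 all lay above the missense-set wild types at 6.24, 6.08 and 6.19.

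Among the other 16 genes of the small-subunit processome, Utp6 held the lowest unadjusted p in the missense comparison and the second lowest in the null comparison. Utp6, a subunit of the UTP-B module, had log2 values of 7.11 and 7.18 in the null samples, against 6.70 and 6.76 in the null-set wild types. It read 7.07, 6.90 and 6.83 in the missense samples, against 6.48, 6.65 and 6.74 in the missense-set wild types. Every mutant sample lay above every wild type of its own set, and above the wild types of the other set as well. The change was 0.42 (SE 0.12, unadjusted p = 0.00459, limma adjusted p = 0.308) with the null allele and 0.31 (SE 0.10, unadjusted p = 0.00802, limma adjusted p = 0.884) with the missense allele. With the wild types pooled, the adjusted p was 0.0709 for null and 0.595 for missense, the lowest of any factor under any alternative in those comparisons. Utp6 was thus not called under any of them.

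Utp20, a very large scaffold protein of the processome, read 6.55 and 6.47 in the null samples, against 6.21 and 6.43 in the null-set wild types. In the missense samples it read 6.28, 6.40 and 6.32, against 6.26, 6.25 and 6.21 in the missense-set wild types. Mutant samples were higher without overlap in both sets, by 0.19 (SE 0.11) with null and 0.09 (SE 0.09) with missense, and both limma adjusted p-values missed the threshold at 0.725 and 0.933. Without null-set wild type 1 the null change of Utp20 was 0.07.

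Imp4, a U3-binding protein, and Emg1, a methyltransferase of the small-subunit rRNA, were lower in all mutant samples. Imp4 had 5.95 and 5.97 in the null samples, against 6.03 and 5.98 in the null-set wild types, a change of only -0.04 (SE 0.12). It had 5.95, 5.83 and 5.81 in the missense samples, against 6.03, 6.14 and 6.25 in the missense-set wild types, a change of -0.28 (SE 0.09, unadjusted p = 0.0135, limma adjusted p = 0.884). Emg1 read 6.03 and 6.08 in the null samples, against 6.45 and 6.13 in the null-set wild types, a change of -0.24 (SE 0.13) that was -0.07 without null-set wild type 1. It read 5.98, 5.77 and 5.85 in the missense samples, against 6.01, 5.99 and 6.05 in the missense-set wild types, a change of -0.15 (SE 0.11). In neither gene did the groups overlap. An exon of Lpcat3 on the opposite strand overlaps Emg1 in the reference annotation, and as the sources used here do not say whether the reads keep their strand, reads of both genes may not be separable.

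**Figure D2:**
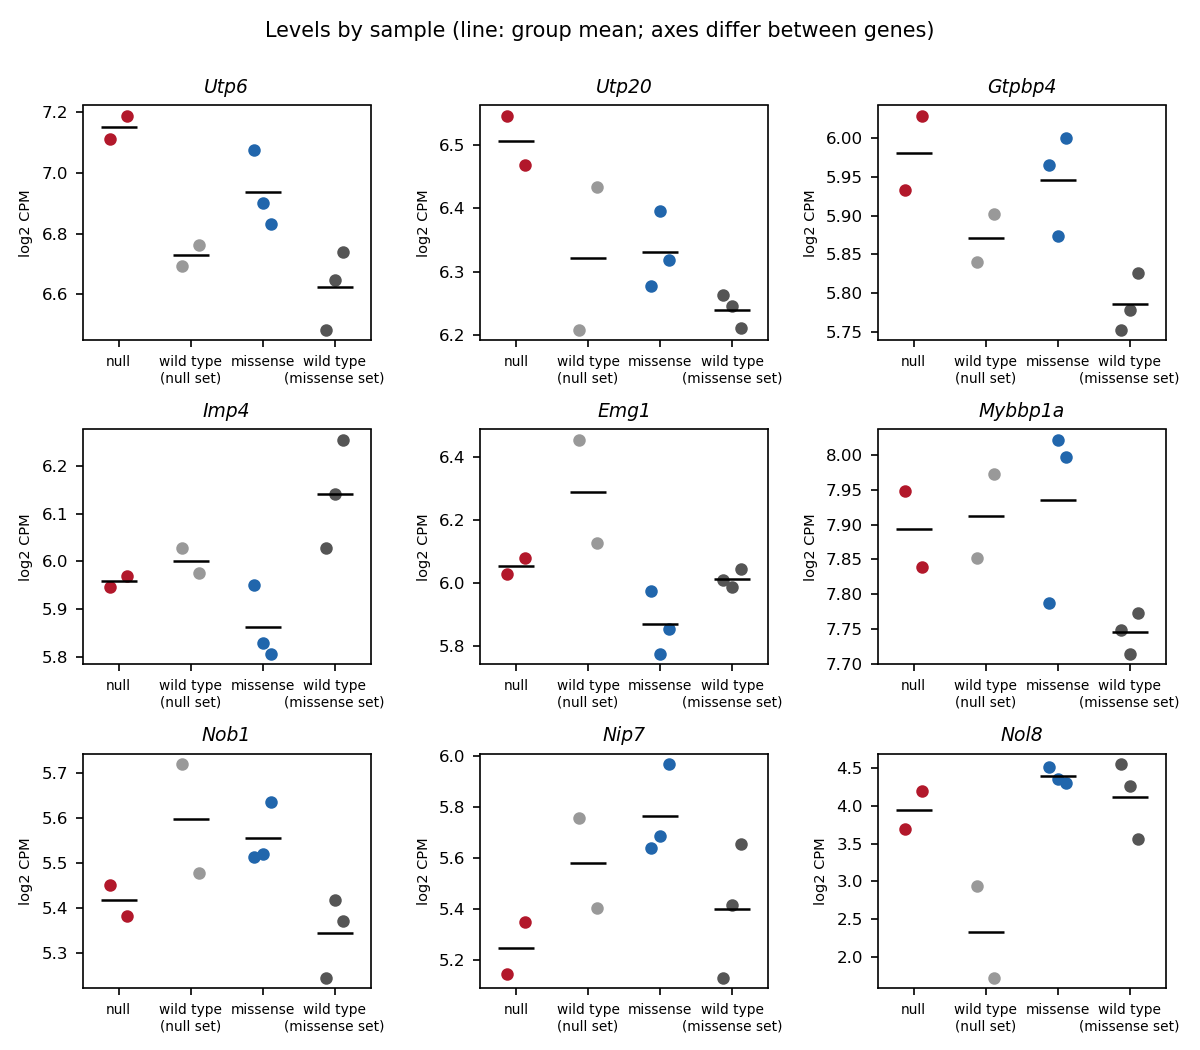
Deposited log2 values of 9 factors in each of the 10 samples, with the null samples left of their wild types and the missense samples left of theirs, and a bar at each group mean. Utp6, Utp20 and Gtpbp4 are higher in every mutant sample than in the wild types of its set, Imp4 and Emg1 are lower, and Nol8 is lowest in both null-set wild types.

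The late factors of the small subunit had a median change of 0.05 with the null allele and 0.12 with the missense allele. Tsr1, a GTPase-like protein that guards the decoding site of the immature subunit, had 6.29 and 6.16 in the null samples, against 5.86 and 6.01 in the null-set wild types, without overlap. Its change of 0.29 (SE 0.15) missed the threshold (limma adjusted p = 0.666), and it was -0.03 with the missense allele. Exons of Srr on the opposite strand overlap Tsr1 in the reference annotation, with the same limit as for Emg1.

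Nob1, the endonuclease that makes the final cut at the end of the small-subunit rRNA, was the only factor that lay lower in both null samples and higher in all 3 missense samples. It read 5.45 and 5.38 in the null samples, against 5.72 and 5.48 in the null-set wild types. In the missense samples it read 5.51, 5.52 and 5.63, against 5.24, 5.42 and 5.37 in the missense-set wild types. The changes were -0.18 (SE 0.13) with null and 0.21 (SE 0.11) with missense, and without null-set wild type 1 the null change was -0.06. The test of their difference gave -0.39 (SE 0.17, unadjusted p = 0.042, limma adjusted p = 1). The null samples lay within the range of the missense set, and the missense-set wild types were below those of the null set.

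The PeBoW complex, formed by Pes1, Bop1 and Wdr12, is needed to process the large-subunit rRNA. Pes1 differed by 0.02 in both comparisons. Wdr12 had 5.54 and 5.46 in the null samples, against 5.82 and 5.86 in the null-set wild types, so the null samples were lower without overlap (change -0.34, SE 0.26, limma adjusted p = 0.801). It read 5.24, 6.19 and 5.39 in the missense samples, against 5.63, 5.26 and 5.29 in the missense-set wild types. Missense sample 2 stood far above the others here, and the change of 0.21 was -0.08 without it. Bop1 differed by -0.06 with the null allele and 0.12 with the missense allele, with overlap in both.

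The other 17 large-subunit factors had a median change of 0.03 with the null allele (-0.06 without null sample 1) and 0.07 with the missense allele, where 14 of the 17 were higher. Nol8, a nucleolar RNA-binding protein, had the largest change of all 59 factors. It read 3.69 and 4.20 in the null samples, against 2.94 and 1.73 in the null-set wild types. It read 4.51, 4.35 and 4.29 in the missense samples, against 4.55, 4.25 and 3.55 in the missense-set wild types, where the groups overlapped. The low values were thus those of the null-set wild types, which were below all 8 other samples. The null change was 1.61 (SE 0.40, unadjusted p = 0.00199, limma adjusted p = 0.206), and 0.54 with the wild types of both sets pooled. It was 1.01 without null-set wild type 2, the lowest sample, and 2.22 without wild type 1. Missense-set wild types differed from null-set wild types by 1.79 (SE 0.36, limma adjusted p = 0.258). The missense change was 0.27 (SE 0.33).

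Nip7, a factor of early large-subunit processing, had 5.15 and 5.35 in the null samples, against 5.76 and 5.41 in the null-set wild types, a change of -0.33 (SE 0.20), or -0.16 without null-set wild type 1. It had 5.64, 5.69 and 5.97 in the missense samples, against 5.13, 5.42 and 5.65 in the missense-set wild types, a change of 0.36 (SE 0.16, unadjusted p = 0.0438, limma adjusted p = 0.896). The groups were apart in the null set and overlapped in the missense set. The difference between the changes was -0.70 (SE 0.25, unadjusted p = 0.0187, limma adjusted p = 1). Gtpbp4, a GTPase of the large-subunit precursor, was the third gene to be higher in every mutant sample. It read 5.93 and 6.03 in the null samples, against 5.84 and 5.90 in the null-set wild types, and 5.97, 5.87 and 6.00025 in the missense samples, against 5.75, 5.78 and 5.83 in the missense-set wild types. These are small differences, of 0.11 (SE 0.11) and 0.16 (SE 0.09).

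Nop16, another large-subunit factor, differed by 0.41 (SE 0.21) with the missense allele and by 0.07 (SE 0.26) with the null allele, with overlap in both. Gnl3, the GTPase nucleostemin of neural and other stem cells, read 5.52, 5.23 and 5.57 in the missense samples, against 5.35, 4.90 and 5.16 in the missense-set wild types, with overlap. Its change was 0.30 (SE 0.15, limma adjusted p = 0.902) with missense and 0.15 (SE 0.19) with null. Ddx18, a helicase, differed by 0.19 (SE 0.15) with the null allele and by -0.20 (SE 0.12) with the missense allele.

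The 4 abundant nucleolar proteins had the smallest median SE of the 8 role groups, 0.105 with the null allele and 0.0857 with the missense allele. Npm1, the histone and ribosome chaperone nucleophosmin, had 9.74 and 9.82 in the null samples, against 9.71 and 9.54 in the null-set wild types. It had 9.86, 9.55 and 9.69 in the missense samples, against 9.57, 9.44 and 9.63 in the missense-set wild types. The change was 0.15 in both, with SE of 0.11 and 0.09, and the groups were apart in the null set only. Ncl, nucleolin, differed by 0.06 with the null allele and 0.08 with the missense allele. Mybbp1a, a nucleolar protein that binds Myb, read 7.79, 8.02 and 7.998 in the missense samples, against 7.75, 7.71 and 7.77 in the missense-set wild types. The missense samples were all higher, by 0.19 (SE 0.08, unadjusted p = 0.0426, limma adjusted p = 0.896). Its null samples, at 7.95 and 7.84, lay around the null-set wild types at 7.85 and 7.97. Exons of Spns2 on the opposite strand overlap Mybbp1a, with the same limit as for Emg1. Opposite-strand exons also overlap Heatr1 (Lgals8), Imp4 (Gm28306), Gtpbp4 (Gm48649) and further factors.

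The count of factors whose groups did not overlap was read against the same count over all genes. With the null allele 12 of 59 factors were higher and 6 lower without overlap, and over all genes the shares were 22.9% higher and 14.8% lower. With the missense allele 6 factors were higher and 2 lower, against 6.02% and 4.89% of all genes. Higher in both sets without overlap were Gtpbp4, Utp20 and Utp6, which are 5.08% of the factors where 2.47% of all genes were. Lower in both were Emg1 and Imp4, or 3.39% against 1.38%, and Nob1 alone was lower with null and higher with missense, or 1.69% against 0.426%. No factor was higher with null and lower with missense, where 0.514% of all genes were. Changes had the same sign in both comparisons for 36 of 59 factors (61.0%), against 59.5% of all genes. The comparisons share no samples.

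**Figure D3:**
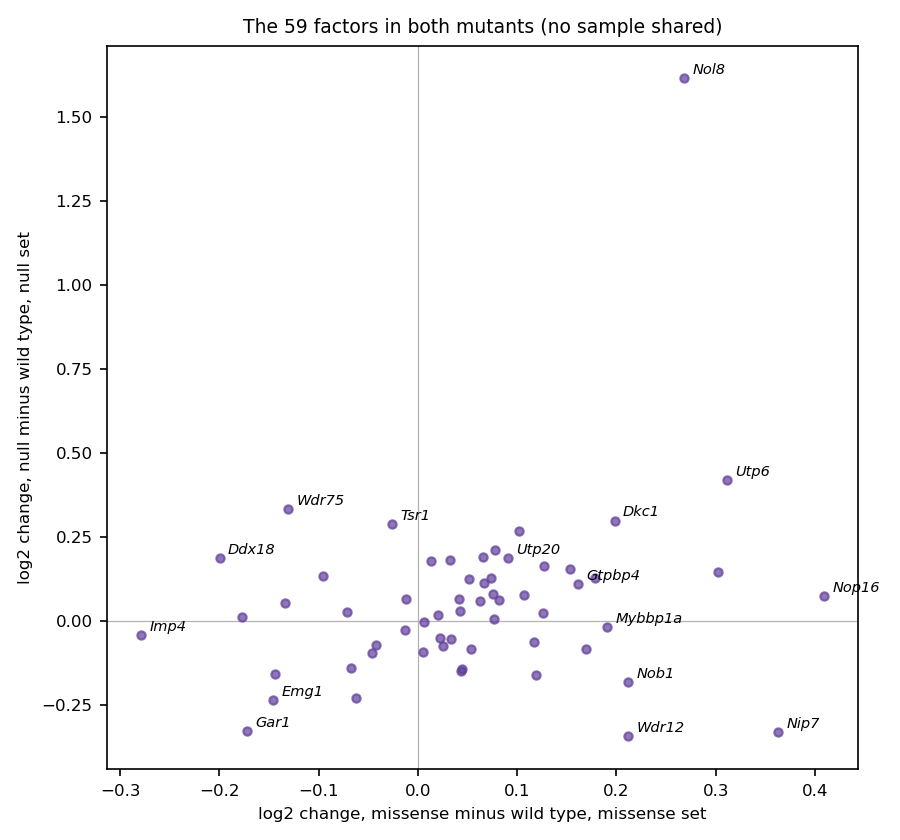
The log2 change of each of the 59 factors with the missense allele (horizontal axis) and with the null allele (vertical axis), each against its own wild types. The factors gather around 0 in both directions, Nol8 stands high at 1.61 on the null axis, and Utp6 lies toward the upper right at 0.31 and 0.42.

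The difference between the null and the missense change was tested for every factor. Its median was -0.01, with 25 factors above 0 and 34 below, and 0 of 59 had an adjusted p under 0.05, where 0.0135% of all genes did. At an unadjusted p under 0.05 there were 3 factors, Nol8 above 0 and Nip7 and Nob1 below, or 5.08% against 4.13% of all genes (2.22% above, 1.91% below). Below 0 were 48.5% of all genes. The sign of the median turned with the sample left out, from -0.07 without null-set wild type 2 to 0.04 without wild type 1.

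The wild types of the 2 sets also differed slightly in the factors. In the missense-set wild types relative to those of the null set, 21 factors were higher and 38 lower (64.4% lower, against 46.7% of all genes). The median change was -0.07, against 0.02 over all genes. It ran from -0.0881 to -0.0436 when 1 sample was left out. The value nearest 0 was that without null-set wild type 1, with 26 factors higher and 33 lower. In limma 0 of 59 passed, where 0.0946% of all genes did, and 2 factors, Nol8 higher and Emg1 lower, had an unadjusted p under 0.05, where 7.37% of all genes did (4.94% higher, 2.43% lower). Without overlap 4 were higher and 14 lower, against shares of 13.7% and 9.76% over all genes. In the same comparison all 18 genes of a proliferation list, among them Mki67, Top2a and Pcna, were lower, with a median of -0.16, and 14 of 15 microglia and macrophage markers (median 0.56) and 13 of 14 neuron markers (median 0.20) were higher. The part of these lists in the difference was not tested.

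**Figure D4:**
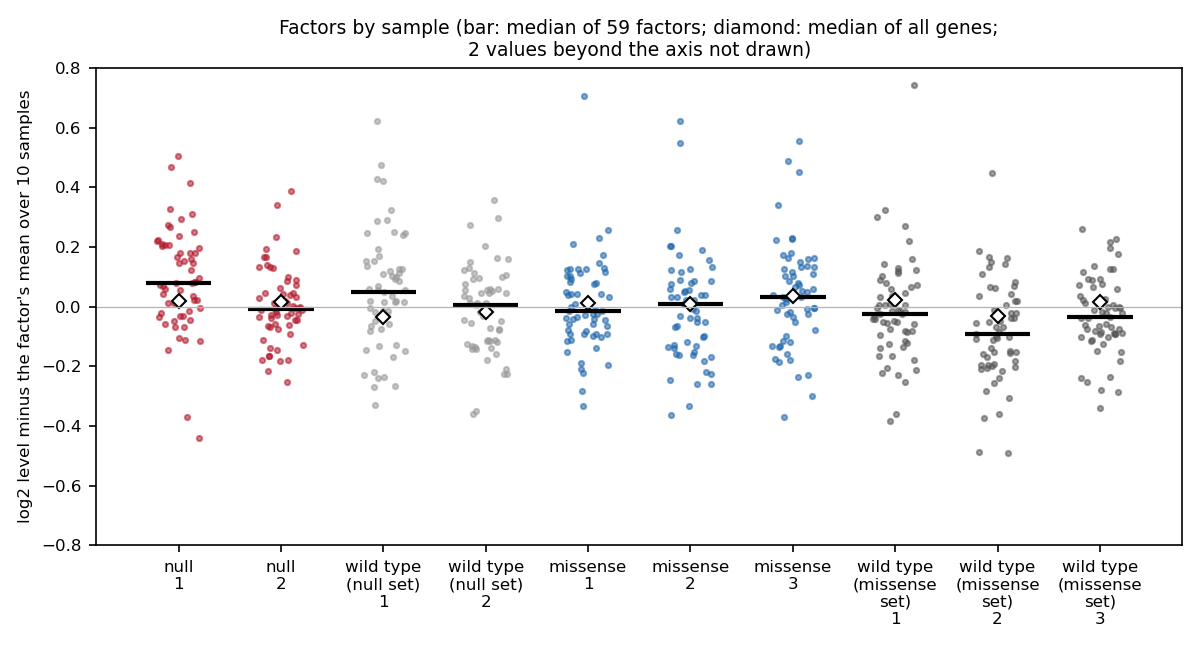
The deviation of each factor from its own mean over the 10 samples, in log2 units, by sample, with mutant samples left of the wild types of their set, a bar at the median of the 59 factors and a diamond at the median of all genes; 2 values beyond the axis limit of 0.8 are not drawn. The medians stay between -0.09 in missense-set wild type 2 and 0.08 in null sample 1.

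The level of the factors as a group was read in every sample. Their summed linear level was 5738 to 6026 CPM in the null samples, against 5451 to 5825 in the null-set wild types, and 5574 to 5825 in the missense samples, against 5351 to 5567 in the missense-set wild types. Null sample 1 had 42 of 59 factors above their own mean over all samples, and null sample 2 had 26. Missense-set wild type 2 had the fewest, 17. The median deviations of the null samples, 0.08 and -0.01, lay on either side of those of the null-set wild types, 0.05 and 0.0045. The missense samples, at -0.016, 0.0077 and 0.03, all lay above the missense-set wild types, at -0.024, -0.09 and -0.03, and their summed levels were above those of the wild types too.

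Null-set wild type 1 stood apart by transcript length. Over the 59 factors the Spearman rho between length (the longest protein-coding transcript in the reference annotation) and the deviation in that sample was -0.508, and over 13865 genes with a length it was -0.284. In the other 9 samples rho over the factors lay between -0.111 and 0.26. The 20 shortest factors had a median deviation of 0.15 in that sample and the 20 longest of -0.02. The box H/ACA genes, of which Nop10, Nhp2 and Gar1 are short, had a median deviation of 0.45 there, and the summed level of 81 cytosolic ribosomal protein genes was 39690 CPM there, against 28410 to 35790 in the other samples. In the null comparison the 20 shortest factors had a median change of -0.06 (8 higher, 12 lower) and the 20 longest of 0.06 (13 higher, 7 lower), against -0.0053 and 0.05 in the shortest and longest genes over the whole table. With the missense allele the shortest factors had a median of 0.04 (13 higher, 7 lower) and the longest of 0.07 (15 higher, 5 lower). The points share a library, and the part of length in single factors' changes was not tested.

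**Figure D5:**
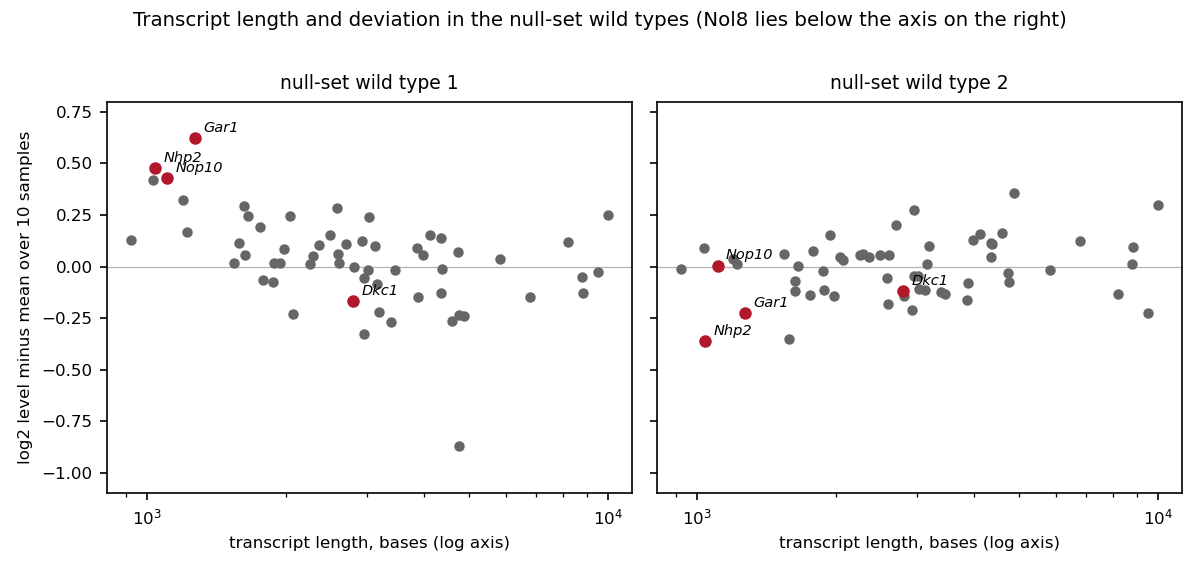
Length of the longest protein-coding transcript (log axis, bases) against the deviation of each of the 59 factors from its own mean (log2) in null-set wild type 1 (left) and null-set wild type 2 (right), with box H/ACA genes in red. Short transcripts lie high in wild type 1, where rho is -0.508, and show no such slope in wild type 2, where rho is 0.166 and Nol8 falls below the axis.

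Genes of the same pathway outside the list were not called either. Of 36 other small-subunit factors, all with a row, 0 passed the test in either comparison, with medians of -0.02 with null (0.01 without null-set wild type 1) and 0.05 with missense. The changes of the 59 factors ran from -0.34 to 1.61 with null and from -0.28 to 0.41 with missense. Those of the 36 genes ran from -2.91 to 0.21 with null and from -0.48 to 1.56 with missense. Nom1, a processome-associated protein, had the largest of their missense changes with an unadjusted p under 0.05, at 0.70 (SE 0.21, unadjusted p = 0.00641, limma adjusted p = 0.884). Utp14a was at 0.30 with missense, and Wbscr22, the older symbol of the methyltransferase Bud23, at -0.41. Of 49 other large-subunit factors 48 had a row and 0 passed, with medians of 0.03 with null (-0.01 without null sample 1) and 0.02 with missense (-0.02 without missense-set wild type 2). Cebpz had the lowest p of these with the null allele, at 0.30 (SE 0.13, unadjusted p = 0.0354), and Nol12 with the missense allele, at 0.45 (SE 0.17, unadjusted p = 0.0225). The RNA exosome genes (16 of 17 with a row) had medians of -0.01 and -0.00447, and the RNA polymerase I subunits (9 of 13) of -0.03 and -0.08, with 0 called. Both null medians were above 0 without null-set wild type 1, at 0.06 for the exosome and 0.07 for the subunits. Polr1f, Polr1g, Polr1h and the large-subunit factor Afg2a had no entry in the reference used to match older symbols. Rows under other names of these genes were therefore not looked for.

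The 11 genes of the Myc family had medians of -0.11 with null (-0.03 without null sample 1) and -0.02 with missense (0.04 without missense sample 2), and 0 were called. Myc had 3.43 and 3.24 in the null samples, against 3.52 and 3.89 in the null-set wild types (change -0.37, SE 0.24, limma adjusted p = 0.752). It was lower without overlap, as were 14.8% of all genes. Mycn, the main Myc gene of neural progenitors, differed by -0.07 with null and 0.04 with missense. The 18 proliferation genes had medians of -0.08 and 0.01. The 81 cytosolic ribosomal protein genes were taken by a pattern of symbols, which can admit ribosomal-protein-like paralogs and leaves out Rpsa. They had medians of -0.05 with null and -0.13 with missense. The null median rested on null-set wild type 1, and without it was 0.18, with 75 genes higher and 6 lower. Of the 81 genes 1 was called higher with null, where 0.162% of all genes were called in either direction, and 0 were called without that sample. With missense 1 was called lower, where 0.0203% of all genes were called, and the changes ran from -3.76 to 1.32. Between the wild types of the 2 sets, 2 of the 81 were called higher and 2 lower, where 0.0946% of all genes were called. The changes there ran from -9.64 to 0.96. The source of these calls was not tested.

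Markers of cell types were read in the same samples. The 11 telencephalon markers read were detected in every sample, and their summed level was 1432 to 1494 CPM in the null samples, against 1696 to 1937 in the null-set wild types, and 1396 to 1651 in the missense samples, against 1694 to 1817 in the missense-set wild types. Of the 11 markers 7 were lower with null and 9 with missense. In the null samples 3 of them fell with an adjusted p under 0.05 in limma, the ventral regulators Dlx1 at -1.38 (SE 0.10, adjusted p = 0.000369), Dlx2 at -1.68 and Nkx2-1 at -1.91, and with missense 0 were called. Leaving out 1 sample of the null set left 1 to 3 of the 11 called. Neuron markers were lower in 11 of 14 cases in both comparisons, with sums of 3385 to 3794 in null, against 3989 to 4527 in its wild types, and 3976 to 4721 in missense, against 4590 to 4814 in its wild types. Radial glia markers were lower in 8 of 11 cases with null and in 6 of 11 with missense. They summed to 3584 to 3652 in null, against 3781 to 4100 in its wild types. With missense the sums were 3327 to 4007, against 3468 to 3876 in its wild types. Endothelium and pericyte markers were higher with null in 11 of 12 cases and with missense in 6 of 12. Erythroid markers were higher in 10 of 12 cases with null and 8 of 12 with missense, with overlapping sums in both sets. Mesenchyme markers summed to 2833 to 3775 in null, against 1930 to 2272 in its wild types, with 15 of 15 higher, and to 2574 to 3511 in missense, against 2032 to 3339 in its wild types, also with 15 of 15 higher. Microglia and macrophage markers summed to 150.6 to 158.7 in null, against 70.9 to 80.84 in its wild types, with 15 of 15 higher, and to 125.9 to 159 in missense, against 94.05 to 114.4 in its wild types, with 12 of 15 higher. Markers of diencephalon and midbrain summed to 705.6 to 756.4 in null, against 409.7 to 463.8 in its wild types, with 12 of 15 higher, and to 416 to 633.5 in missense, against 413.7 to 651.6 in its wild types, with 9 of 15 higher. P2ry12, a defining marker of microglia, was at the floor of the table in 3 samples. Kcnj8, among the endothelium and pericyte markers, was at the floor in 6 samples, and Tyrobp and Klf1 in 1 each. The part of these markers in the factors' values was not tested.

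Promoter sequence was read as a property that the choice of genes did not use. In RefSeq's GRCm38.p6, 51 of 59 factors matched a promoter, and the 250 bases before the start were searched on both strands. The Ets core CCGGAAG or its reverse CTTCCGG was found in 14 of 51 (27.5%), against 7.83% of 27025 genes. The E-box CACGTG, which Myc and Max can bind, was found in 4 of 51 (7.84%), against 6.86%, the variant CACGCG or CGCGTG in 6 (11.8%), against 8.65%, and the GC box GGGCGG or CCGCCC in 31 (60.8%), against 35.4%. The median GC content of these windows was 58.4%, against 52.4% over all promoters, and the GC-rich motifs were not matched for it. The 27025 genes also included genes that are not protein-coding, since 17492 protein-coding genes had a promoter. They were not limited to measured genes either, and no motif share over protein-coding genes alone was computed. The 14 factors with the Ets core had a median change of -0.02 with the null allele and 0.04 with the missense allele, and the 37 without it 0.06 and 0.05.

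The windows below show the only factor promoter besides that of Utp18 with both an E-box and an Ets core (Nop2, a cytosine methyltransferase of large-subunit rRNA), a pair with an Ets core alone from factors on opposite sides of 0 with the null allele (Heatr1 and Gar1), and that of Nol8, which has neither. They were picked after their motifs and values were seen, and the null changes of Heatr1 and Gar1 each rested largely on a single sample, as given above. Each runs from 250 bases before the start to the base before it, in the direction of the gene, and capitals mark CACGTG and the Ets core. Nop2 is chr6:125131633-125131882 on the plus strand, Heatr1 chr13:12395125-12395374 on the plus strand, Gar1 chr3:129831397-129831646 on the minus strand and Nol8 chr13:49652828-49653077 on the plus strand.
Nop2: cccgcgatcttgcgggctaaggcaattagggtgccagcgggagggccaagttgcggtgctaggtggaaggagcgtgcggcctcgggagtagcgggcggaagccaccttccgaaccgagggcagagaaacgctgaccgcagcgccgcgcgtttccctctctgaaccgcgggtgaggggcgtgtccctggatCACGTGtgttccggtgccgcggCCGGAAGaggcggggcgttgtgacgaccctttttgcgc
Heatr1: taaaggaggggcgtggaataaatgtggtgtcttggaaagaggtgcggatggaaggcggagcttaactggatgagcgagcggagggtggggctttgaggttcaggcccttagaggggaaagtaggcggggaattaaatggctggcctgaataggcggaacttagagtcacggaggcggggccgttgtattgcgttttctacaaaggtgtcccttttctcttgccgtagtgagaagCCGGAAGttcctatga
Gar1: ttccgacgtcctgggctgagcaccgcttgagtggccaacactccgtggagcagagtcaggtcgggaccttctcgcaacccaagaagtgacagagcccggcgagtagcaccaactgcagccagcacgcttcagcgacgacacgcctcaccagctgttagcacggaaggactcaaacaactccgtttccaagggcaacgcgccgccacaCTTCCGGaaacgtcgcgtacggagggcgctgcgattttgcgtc
Nol8: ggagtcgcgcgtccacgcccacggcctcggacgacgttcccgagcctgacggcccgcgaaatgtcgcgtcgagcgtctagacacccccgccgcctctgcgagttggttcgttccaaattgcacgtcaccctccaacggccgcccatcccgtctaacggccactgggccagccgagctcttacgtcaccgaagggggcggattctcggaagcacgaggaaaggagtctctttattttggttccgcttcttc

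An exon of another protein-coding gene on the opposite strand lay within the 250 bases before the start for 13 of 51 factors (25.5%), against 8.96% of 17492 protein-coding genes. Beside Emg1, at -0.24 and -0.15, Phb2 differed by -0.01 with null and -0.01 with missense. Beside Imp4, at -0.04 and -0.28, Ccdc115 differed by -0.13 and -0.07. Beside Nip7, at -0.33 and 0.36, Cog8 differed by 0.14 and -0.28, with signs opposite to those of Nip7. None of these neighbours was called.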

How the data were processed

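The deposited table holds log2 expression values of 10 samples, 1 row per gene and sample, in a table the authors name filtered and normalized. Back-transformed, each sample's values sum to nearly the same total, that of a CPM scale, so the deposited log2 values were read as log2 CPM. No aligner, counter or normalization is named in the sources used here. The submitters' processing notes name the genome build GRCm39. Of 14797 rows per sample, 1 has no gene name and was left out. Depth is unknown, so no counting interval is given.

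Samples were grouped by genotype label and the number in their title, and each mutant group was set against wild types of the same number. All 14796 genes were fitted in limma 3.58.1 (R 4.3.3) with 4 groups, empirical Bayes with a trend on the mean level, 6 residual and 4.83 prior degrees of freedom, 2-sided tests and Benjamini-Hochberg adjustment over all genes; a call is an adjusted p under 0.05. The code was tested on simulated data. Intervals are 95% and unadjusted. The members and lists were chosen with earlier results of these data known, so no list has a p of its own. A gene of the telencephalon list is not reported here and was left out of its sums and counts. Named factors were drawn from the 12 with the lowest p for each mutant and the 5 with the lowest p for each other contrast. Also drawn on were 10 representatives and up to 3 genes per role or list. Of the 12, Ddx52 with null and Ltv1 and Utp18 with missense had no change given above. Their 95% intervals were -0.11 to 0.47, -0.097 to 0.45 and -0.43 to 0.08. Nhp2, Nop2 and the neighbouring genes lie outside that rule and were named after their values were seen. Lengths and overlaps come from GENCODE M21 and promoters from RefSeq, both on GRCm38. Alternatives were pooled wild types, centring on sample medians, quantile normalization, leaving out genes under the 25th percentile of mean level, a pseudocount of 1 on back-transformed values, no variance trend, robust variances, sample weights, each set alone and leaving out each sample.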

Additional observations from a re-analysis of the deposited data

Results flagged for a closer look

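Nob1, the endonuclease of the last cut in small-subunit rRNA, was lower in both null samples and higher in all 3 missense samples than in the wild types of the same set. It was flagged for this pattern, which 1.69% of the factors and 0.426% of all genes had. Its null change was smaller without null-set wild type 1, as given above. The test of the difference used the same values, so it is not separate support. The difference between the null and the missense change was -0.39 on the log2 scale (SE 0.17, unadjusted p = 0.042), and it did not pass after adjustment over all genes (limma adjusted p = 1). The groups of 2 and 3 samples were too small for a search for single outlying samples.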

How the results depend on the processing

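No factor was called under any alternative run, and the lowest adjusted p was 0.0709 with null and 0.595 with missense (both Utp6, pooled wild types), 0.572 for the difference and 0.0626 between wild types (both Nol8). The median change of the factors with null, 0.03, was 0.081 with pooled wild types, -0.005 with median-centred samples and -0.0284 to 0.0729 over fits that left out 1 sample; that with missense, 0.05, ran from 0.0225 to 0.073, and that of the difference, -0.01, ran from -0.0657 to 0.0374. Single factors kept their sign in every alternative in 24 of 59 cases with null and 31 of 59 with missense. Over all genes, the 24 null calls were 59 with pooled wild types, 6 without the variance trend and 0 in the null set alone (1101 at an unadjusted p under 0.05), and 2 to 23 without 1 sample. The 3 missense calls were 2 to 10 without 1 sample, the 2 calls of the difference 1 after median-centring, 0 without the trend (646 at an unadjusted p under 0.05) and 1 to 10 without 1 sample, and the 14 calls between wild types 8 with the filter and 7 to 21 without 1 sample; the cause was not tested. No paired analysis was possible because the samples of a mutant and its wild types share no replicate number. Depth is unknown, and 2 or 3 samples a group limit what can be called: the median SE of a factor was 0.147 with null.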

Other observations

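Utp4, the listed gene without a row under its own symbol, is given in RefSeq with the older symbol Cirh1a, and the table has a row of that name. Cirh1a had log2 values of 5.50 and 5.25 in the null samples, against 5.05 and 5.26 in the null-set wild types, with overlap. It read 5.12, 5.07 and 4.997 in the missense samples, against 5.04, 5.01 and 4.999 in the missense-set wild types. The changes were 0.22 (SE 0.14, limma adjusted p = 0.748) and 0.04 (SE 0.12, limma adjusted p = 0.969). It was kept out of all counts of factors.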
